A study of Mus musculus with 17 samples.

Results

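The genes described here encode interleukins and the receptors and inhibitors that act with them, measured as RNA in mouse colon. Members were taken by symbol: every entry of the count table that begins with Il and a digit, apart from Il4 and Il6, which stand in rows 1 and 2, out of the alphabetical order in which the first member, Il10, is row 8129. This gave 83 of the 23719 entries of the table, with 81 distinct symbols. By role they were 35 ligands, 42 receptor chains, 4 inhibitors and 2 entries that are none of these, Il1bos, an RNA antisense to Il1b, and Il4i1, an amino acid oxidase. The study modelled Gulf War Illness (GWI) in male C57BL/6 mice aged 32 to 34 weeks. The GWI mice, given by 8 libraries, took pyridostigmine bromide (PB), a reversible acetylcholinesterase inhibitor, at 2 mg/kg in drinking water over 7 days, had 21 days of recovery and gave colon tissue at day 30. The Control mice, given by 9 libraries, drank water without PB and were otherwise of the same sex, strain and age. The question addressed here is which interleukin genes differed in RNA level between the groups, and whether ligands and receptors did so alike.

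Interleukins are small secreted proteins by which leukocytes, epithelium and stroma act on one another. Most bind a receptor built from a chain that recognises the ligand and often a chain shared with other interleukins, and signal through kinases of the JAK family and STAT factors, or, for the IL-1 and IL-17 families, through adaptor proteins that lead to NF-kappaB. In the gut, IL-22 and IL-17 act on epithelium in barrier defence, IL-10 restrains inflammatory responses, and IL-33 and IL-18 of the IL-1 family are made largely by non-haematopoietic cells.

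Total counts lay between 16744096 and 20741212 in the Control colons and between 16293537 and 18389686 in the GWI colons. Levels are given as CPM, the count of a gene scaled to a common library total, after TMM scaling, which corrects for differences in library composition. The labels do not say outright that each library is a separate mouse, so p-values measure the spread between these samples. Several column names share a first part, such as 4A, 4B and 4C or GB1, GB2 and GB3. What these parts mean is not stated, and they were not modelled, so the p-values take such colons as unrelated. Some libraries stood apart in member genes. Control replicate 1 was the highest Control colon for Il1rn, Il22ra1, Il17rc, Il20rb and Il34, each by a gap large against the range of its group. Control replicate 9, whose TMM factor was 0.7986 where the other libraries had 0.9414 to 1.114, stood apart for Il15, Il18, Il18r1, Il1rap and Il7. GWI replicate 5 was far above the other GWI colons for Il22ra1, Il1rn and Il17d. Control replicates 6 and 7 had high levels of some genes typical of the small intestine, among them Fabp6, at 119 and 314 CPM where the other colons had 0.631 to 6.90 CPM. The sum of all small intestine markers was highest in Control replicate 9, at 3089 CPM, most of it Fabp2, against 2769 in Control replicate 7 and 1809 in Control replicate 6.

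Of the 83 members, 35 passed the filter on low counts and were tested, against 14146 of the 23719 entries in all. The filter asks for enough counts in about as many colons as the smaller group has, so a gene high in 1 group can pass. In the edgeR quasi-likelihood fit over all tested genes, 1 of the 35 was higher in GWI at an adjusted p under 0.05, Il17ra, where 13.4% of all tested genes were higher. Calls are those of this fit wherever no other is named. Lower in GWI were 3 of the 35, Il33, Il1rn and Il10ra, where 13.5% of all tested genes were lower. In this fit the shares of the members, 2.86% and 8.57%, were below those of all tested genes. The split of all calls depended on the scaling, with 49.8% of the called genes higher under TMM and 28.9% under upper-quartile factors, where 1 member was higher and 7 were lower (2.86% and 20.0%) against 8.58% and 21.2% of all tested genes. Limma-voom called 8 members higher and 11 lower (22.9% and 31.4%), where 27.6% and 29.5% of all tested genes were. For 0 of the 35 members did the groups separate without overlap, against 2.35% of all tested genes. Without Control replicates 1 and 9, a fit added after the data were seen, 5 members were higher and 6 were lower (14.3% and 17.1%), where 19.7% and 19.6% of all tested genes were. Without Control replicates 6 and 7, also added, 2 members were higher and 3 lower, where 10.1% and 9.56% of all tested genes were.

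Ligands and receptors differed in how many were measurable. The filter was passed by 7 of the 35 ligands (20.0%), 25 of the 42 receptor entries (59.5%) and 3 of the 4 inhibitors (75.0%), where 59.6% of all entries passed. Among the tested ligands 0 were higher and 1 was lower, and their median log2 difference between GWI and Control was -0.38, and -0.14 without Control replicate 1. Between single Control colons the medians of ligands and receptors varied with SDs of 0.27 and 0.12. By edgeR, 1 tested ligand was higher and 3 were lower at an unadjusted p under 0.05. Of the 25 tested receptors 4 were higher and 4 lower at that threshold. Of all 14146 tested genes 2728 were higher and 3123 lower at it. For ligands the DESeq2 Wald test called 1 higher and 1 lower and limma-voom 2 higher and 4 lower. Among the tested receptors 1 was higher and 1 was lower, with a median of -0.05, close to the -0.06 of all tested genes, while limma-voom called 6 higher and 5 lower. The 3 inhibitors had a median of -0.93, with 1 lower. By edgeR, 0 inhibitors were higher at an unadjusted p under 0.05, and the same count came from DESeq2 and limma-voom, each of which called 2 lower. The difference between ligands and receptors was not tested. With a score of smooth muscle against epithelium markers as a covariate the medians became -0.036 for ligands and 0.063 for receptors.

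**Figure D1:**
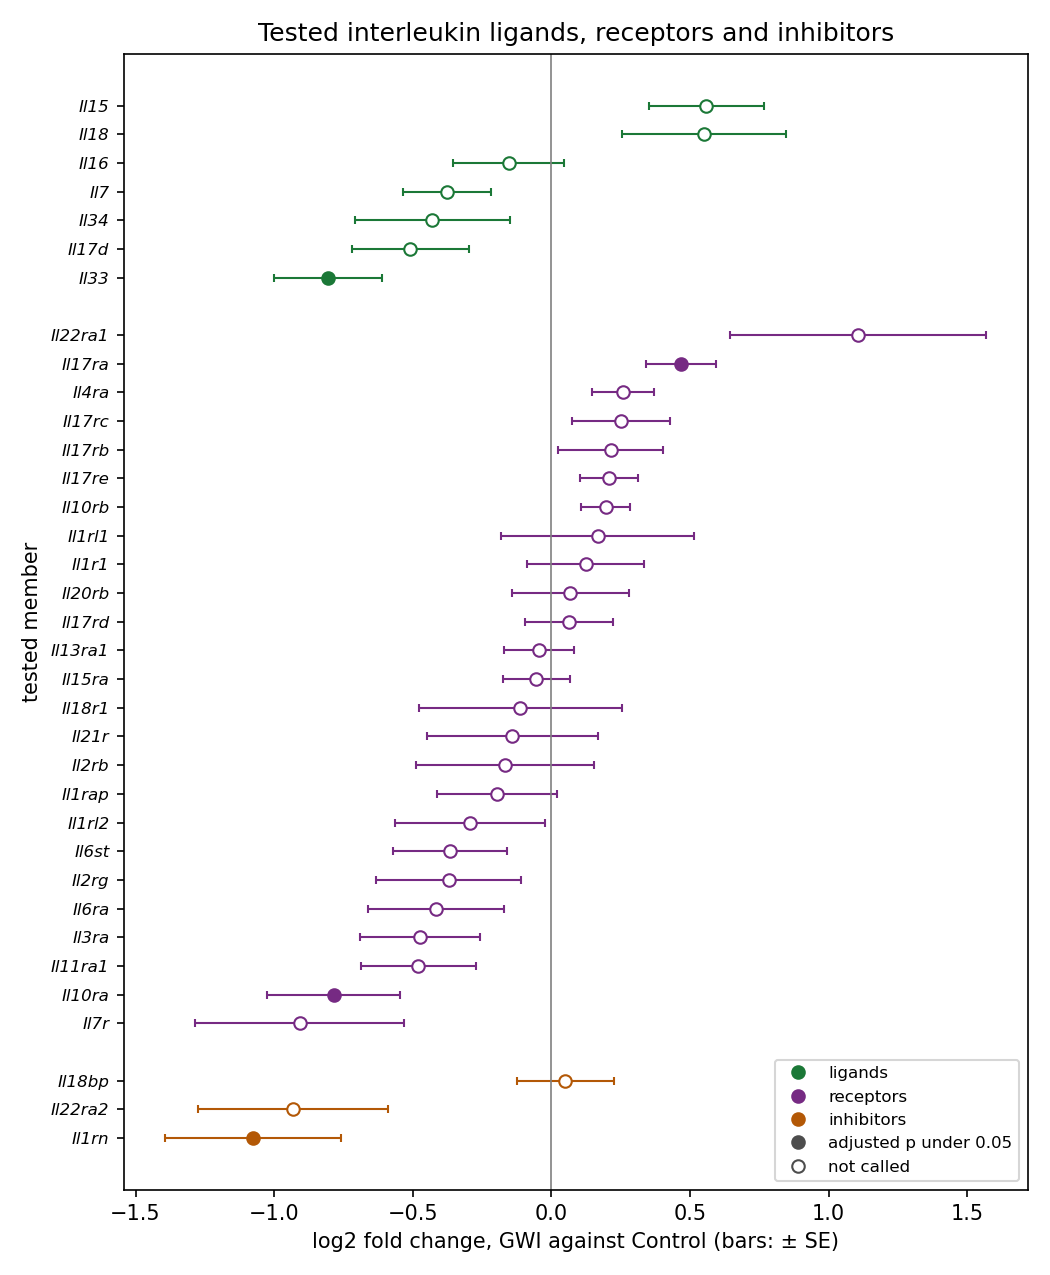
Log2 fold change of each of the 35 tested members in GWI against Control (horizontal axis, positive is higher in GWI), with bars for the standard error. Colours mark ligands, receptors and inhibitors, and filled points mark the 4 members with an adjusted p under 0.05, Il33, Il17ra, Il10ra and Il1rn.

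Il33 was the ligand that passed the test. It encodes IL-33, a nuclear cytokine of the IL-1 family that is released when cells are damaged and is sensed by the receptor encoded by Il1rl1, and it lies at chr19:29925114-29960718 on the plus strand of GRCm38. Control colons had from 4.04 to 13.2 CPM with a median of 8.41, and GWI colons had from 3.96 to 6.40 with a median of 4.55. All 8 GWI colons were below the Control median and 1 was below every Control colon, while Control replicate 9 lay among the GWI values, so the groups overlapped. Il33 had a log2 fold change of -0.81 (SE 0.19, adjusted p = 0.00744 by edgeR). Without Control replicates 1 and 9 it was -0.95 (adjusted p = 0.000309). With the score of smooth muscle against epithelium markers as a covariate it was -0.11 (adjusted p = 0.722), in a fit that cannot separate score from condition. That was the highest adjusted p of its 13 other fits, which began at 1.45e-05. Its receptor chain Il1rl1 had a log2 fold change of 0.17 with an SE of 0.35.

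Smooth muscle markers moved in the same direction as Il33. Of 10 such markers 7 were lower in GWI, their median log2 difference being -0.91, and 0 were higher, also at an unadjusted p under 0.05 by edgeR and by DESeq2 and limma-voom. For comparison, edgeR called 13.4% of all tested genes higher and 13.5% lower, and limma-voom 27.6% and 29.5%. The count of lower smooth muscle markers depended on single colons, from 2 to 10 over the 17 fits that left out 1. It was 2 without Control replicate 6, which had the highest sum, and also 2 without Control replicates 6 and 7, with 9 at an unadjusted p under 0.05. Their summed level ran from 3690 to 23920 CPM with a median of 11580 in Control colons and from 3658 to 11830 with a median of 5142 in GWI colons. Myh11, the smooth muscle myosin heavy chain, was the most abundant of them, and none was at 0 in every colon. Of 11 colon epithelium markers 5 were higher and 0 lower, the latter also at an unadjusted p under 0.05 and by DESeq2 and limma-voom, with Car1, a carbonic anhydrase, the most abundant. Without Control replicate 1 the number higher was 9, and without Control replicates 6 and 7 it was 4. Their sum had a median of 21090 CPM in Control and 22950 in GWI. Of 7 fibroblast markers 1 was lower, Dcn, and of 7 endothelial markers 2 were lower, Kdr and Prox1, of which Prox1 was called without Control replicates 6 and 7. Limma-voom called 4 fibroblast and 5 endothelial markers lower. Under the muscle and epithelium covariate none of Dcn, Kdr and Prox1 was called and 3 fibroblast markers were higher, Col1a1, Col1a2 and Pdgfrb. The fibroblast sum had a median of 552.5 CPM in Control and 435.8 in GWI, and Col3a1 was its most abundant gene. The endothelial sum had a median of 153.9 CPM in Control and 104.0 in GWI, and Lyve1 was its most abundant gene. Fewer cells of a type and less RNA per cell cannot be told apart in these bulk samples. Which cells carried the Il33 difference was not tested.

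The other tested ligands did not pass the test. Il15, which sustains natural killer cells and intraepithelial lymphocytes, had 9.30 to 33.9 CPM with a median of 15.3 in Control and 16.6 to 34.5 with a median of 24.1 in GWI. All 8 GWI colons were above the Control median, and Control replicate 9 lay among the highest of them. Il15 had a log2 fold change of 0.56 (SE 0.21, adjusted p = 0.0535), which was 0.75 (adjusted p = 0.00364) without Control replicate 9 and 0.63 (0.0394) without GWI replicate 1. Under the muscle and epithelium covariate it was 0.14, and over its 13 other fits the adjusted p of Il15 lay between 0.000405 and 0.708. Il18, an IL-1 family cytokine of epithelium that caspase-1 matures, had 8.94 to 52.1 CPM with a median of 13.9 in Control and 18.9 to 39.9 with a median of 27.3 in GWI. Again all 8 GWI colons exceeded the Control median and Control replicate 9 was the highest of all 17. For Il18 the log2 fold change was 0.55 (SE 0.30, adjusted p = 0.167), and without Control replicate 9 it was 0.90 (adjusted p = 0.00606). Under the muscle and epithelium covariate it was -0.12, and over the 13 other fits that changed a setting or left out several colons its adjusted p ran from 4.14e-05 to 0.780. Of the 17 fits that left out 1 colon, the one without Control replicate 9 moved Il18 and Il15 most.

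Il17d, a member of the IL-17 family, had 7.88 to 22.0 CPM with a median of 16.1 in Control and 7.91 to 18.5 with a median of 10.2 in GWI. Its 7 GWI colons below the Control median were spread over the lower part of the Control range, and GWI replicate 5 stood above them. Its log2 fold change of -0.51 (SE 0.21, adjusted p = 0.0782) became -0.66 (adjusted p = 0.0218) without GWI replicate 5, -0.59 (0.0247) without Control replicate 9 and -0.57, also past the threshold, without Control replicate 8. Under the muscle and epithelium covariate it was 0.18, and over its 13 other fits the adjusted p lay between 0.000221 and 0.598. Il7, a survival factor of lymphocytes, had a median of 10.0 CPM in Control (7.64 to 20.0) and 8.56 in GWI (7.13 to 10.5). Its log2 fold change was -0.38 (SE 0.16, adjusted p = 0.0840), and without Control replicate 9, its highest colon, it was -0.22 (0.135). Without Control replicate 1 it was -0.42 (0.0397), under the muscle and epithelium covariate -0.57 (0.0496), and 4 of its 13 other fits passed the threshold, with adjusted p from 0.00329 to 0.278. Both groups overlapped for Il7, and an exon of Gm16685 lies against its exons on the opposite strand. Il34, which binds the receptor of colony stimulating factor Csf1r, had a median of 1.95 CPM in Control (1.16 to 5.62) and 1.58 in GWI (1.26 to 2.52), with a log2 fold change of -0.43 (SE 0.28, adjusted p = 0.253). Without Control replicate 1, which held the highest Il34 level, it was -0.14, and under the muscle and epithelium covariate -0.04, while limma-voom called it lower (adjusted p = 0.0249), the lowest of its 13 other fits, which reached 0.956. Il16, a chemoattractant of T cells, had a median of 2.70 CPM in Control (1.76 to 3.79) and 2.37 in GWI (1.51 to 3.57), with a log2 fold change of -0.15 (SE 0.20, adjusted p = 0.576) that was 0.05 under the same covariate. Exons of Il34 and Il16 also overlap genes on the opposite strand, and whether the counting used strand is not stated.

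Per kilobase of exon, the order of the tested ligands by their mean over all 17 colons began with Il18, at 18.6 ± 13.2 CPM per kb (SD, n = 9) in Control and 27.2 ± 6.33 (SD, n = 8) in GWI. Il17d followed with 12.2 ± 3.97 in Control and 8.56 ± 2.63 in GWI, and Il15 with 7.52 ± 3.13 and 11.1 ± 2.66. In Control the spans of 1 SD around the means of these neighbours overlapped, while in GWI Il18 stood above the others and Il17d and Il15 overlapped. Il33 had 3.02 ± 0.960 in Control and 1.73 ± 0.346 in GWI, Il7 1.96 ± 0.627 and 1.51 ± 0.210, and Il34 1.17 ± 0.692 and 0.867 ± 0.218. Il16 was the lowest, with 0.326 ± 0.0808 and 0.293 ± 0.0888.

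Among receptors, Il17ra was higher in GWI. It encodes the chain shared by the receptors of IL-17 cytokines and lies at chr6:120463247-120487559 on the plus strand. Levels ran from 11.7 to 24.5 CPM with a median of 18.6 in Control and from 22.1 to 30.4 with a median of 25.7 in GWI. All 8 GWI colons were above the Control median, and 4 were above every Control colon, so the overlap was limited to the upper Control values. Il17ra had a log2 fold change of 0.47 (SE 0.13, adjusted p = 0.0131). The other chains of this family, Il17rb, Il17rc, Il17rd and Il17re, had log2 fold changes from 0.06 to 0.25 and were not called by edgeR with all 17 colons, although Il17rd was negative, at -0.03, under upper-quartile factors and Il17rb, at -0.07, under the muscle and epithelium covariate. Limma-voom called Il17rb (adjusted p = 0.0138) and Il17rc (0.00762) higher, against up to 0.859 and 0.761 over their 13 other fits. Of the IL-17 ligands, Il17d was tested, and Il17a had 0 counts in every colon.

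Il10ra, the chain of the IL-10 receptor that binds IL-10, found mainly on leukocytes, was lower in GWI. It lies at chr9:45253837-45269149 on the minus strand. Its level was low, from 0.625 to 2.99 CPM with a median of 1.55 in Control, or 11 to 61 counts, and from 0.746 to 1.18 CPM with a median of 1.05 in GWI, or 13 to 22 counts. All 8 GWI colons were below the Control median, yet Control replicate 2 was the lowest of all 17. Il10ra had a log2 fold change of -0.79 (SE 0.24, adjusted p = 0.0232). Both fits with a covariate lost the call, that for muscle and epithelium (-0.70, adjusted p = 0.164) and that for lymphocyte markers (-0.59, adjusted p = 0.112), and over its other 13 fits beside those that left out 1 colon its adjusted p lay between 0.00926 and 0.164. Il10, its ligand, failed the filter, with at most 5 counts in a colon.

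Leukocyte markers are set beside Il10ra because that chain is mainly theirs. Their counts stand beside 13.4% of all tested genes higher and 13.5% lower by edgeR, and 27.6% and 29.5% by limma-voom. Of 11 tested macrophage markers 1 was higher, Mertk, and 1 was lower, Mrc1, the mannose receptor, with a summed level of 102.1 to 224.9 CPM and a median of 135.5 in Control and of 109.3 to 146.8 with a median of 125.2 in GWI. Mertk was also the most abundant. At an unadjusted p under 0.05 edgeR had 5 of the 11 lower, while DESeq2 called 3 lower and limma-voom 8. The lower count ran from 0 to 5 over the fits that left out 1 colon, with 5 without Control replicate 9 and 0 without Control replicate 3 or 6 or GWI replicate 3 or 4, and was 0 without Control replicates 6 and 7. Under the muscle and epithelium covariate 0 macrophage markers were called. Of the dendritic cell markers 2 were tested and 1 was lower, Itgax, with a summed median of 5.89 CPM in Control and 3.80 in GWI and Zbtb46 the most abundant. The Itgax call was lost in 10 of the 17 fits that left out 1 colon and under both covariates. DESeq2 called Itgax and Cd209a lower, the latter removed by the filter used here, and limma-voom Itgax and Zbtb46. Of 9 tested T cell markers 0 were called by edgeR or at an unadjusted p under 0.05, DESeq2 called 0 and limma-voom 1, lower, and Lck was called lower without Control replicates 1 and 9. The T cell sum ran from 5.62 to 23.8 CPM with a median of 19.3 in Control and from 6.87 to 21.9 with a median of 14.2 in GWI, and Lck was its most abundant gene. Of 4 tested B cell and follicle markers 0 were called by edgeR, also at an unadjusted p under 0.05, and DESeq2 and limma-voom called 0, with a summed median of 11.7 CPM in Control and 14.4 in GWI and Spib the most abundant. No marker of these lists was at 0 in every colon, and their part in the Il10ra result was not tested.

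By the mean over all 17 colons, the 5 receptor chains with the highest level per length were Il17rc, Il13ra1, Il10rb, Il6st and Il22ra1. Il17rc, which pairs with Il17ra to bind IL-17A and IL-17F, had 34.8 ± 13.5 CPM per kb (SD, n = 9) in Control and 41.4 ± 7.05 (SD, n = 8) in GWI. Il13ra1, a receptor chain of IL-13 that pairs with Il4ra, had 28.4 ± 7.18 and 27.5 ± 2.10, which overlap with Il17rc in Control but not in GWI. Il10rb, shared by the receptors of IL-10 and IL-22, had 18.6 ± 2.54 and 21.3 ± 2.03. Il6st, the signalling chain shared by the IL-6 family, had 10.2 ± 3.95 in Control and 7.91 ± 1.64 in GWI, and Il22ra1 4.70 ± 5.52 and 10.1 ± 4.30, so these last chains overlapped. In Control the means of Il11ra1 (7.93 ± 2.27) and Il4ra (6.31 ± 1.29) were above that of Il22ra1, and in GWI that of Il22ra1 was above that of Il6st, each within overlapping spans. By edgeR 0 of these 5 chains were called in the fit of all 17 colons, with Il10rb and Il22ra1 at an unadjusted p under 0.05. Limma-voom called Il17rc, Il10rb and Il22ra1 higher and Il6st lower, and DESeq2 called Il22ra1 higher.

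In CPM, Il17rc ran from 65.0 to 186 with a median of 81.2 in Control and from 72.4 to 129 with a median of 114 in GWI, with a log2 fold change of 0.25 (SE 0.18, adjusted p = 0.289). The Control maximum was replicate 1, and without it the log2 fold change was 0.45 (adjusted p = 0.00520), while its 13 other fits gave 0.00634 to 0.761. Il13ra1 ran from 75.7 to 163 with a median of 94.2 in Control and from 88.7 to 114 with a median of 101 in GWI, and the groups overlapped, with a log2 fold change of -0.04 (SE 0.13, adjusted p = 0.810). Il10rb ran from 55.8 to 90.2 with a median of 72.5 in Control and from 71.7 to 91.9 with a median of 80.6 in GWI. Its log2 fold change was 0.20 (SE 0.09, adjusted p = 0.102), 2 GWI colons exceeded every Control colon, and without Control replicate 2 it was 0.25 (adjusted p = 0.0355), against 0.0355 to 0.737 over its 13 other fits. Its exons overlap Gm21970 on the same strand, so reads may be shared. Il6st ran from 54.6 to 187 with a median of 108 in Control and from 70.8 to 127 with a median of 82.8 in GWI, with a log2 fold change of -0.36 (SE 0.21, adjusted p = 0.187). Control replicate 6 was its highest colon and Control replicate 9 its lowest, and under the muscle and epithelium covariate its log2 fold change was 0.39.

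Il22ra1, the chain by which epithelium receives IL-22, had the highest log2 fold change of the 35 members and yet was not called. Control colons ran from 2.17 to 48.8 CPM with a median of 8.01, and GWI colons from 17.1 to 50.7 with a median of 21.9. Apart from Control replicate 1, at 48.8 CPM, the Control colons reached at most 12.5 CPM, below the lowest GWI colon. The log2 fold change was 1.11 (SE 0.46, adjusted p = 0.0808) with all 17 colons and 1.80 (adjusted p = 0.000467) without Control replicate 1. In the other 13 fits, which change a setting or leave out several colons, the lowest adjusted p was 8.49e-06, with limma-voom. That fit used quality weights, which give outlying samples less weight. The highest was 0.391 with the muscle and epithelium covariate, where the log2 fold change was 0.86. At an unadjusted p under 0.05 with an absolute log2 fold change over 1, the thresholds of the study's methods, Il22ra1 and Il1rn were the members past them, where 0.65% of all tested genes were higher and 1.77% lower.

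**Figure D2:**
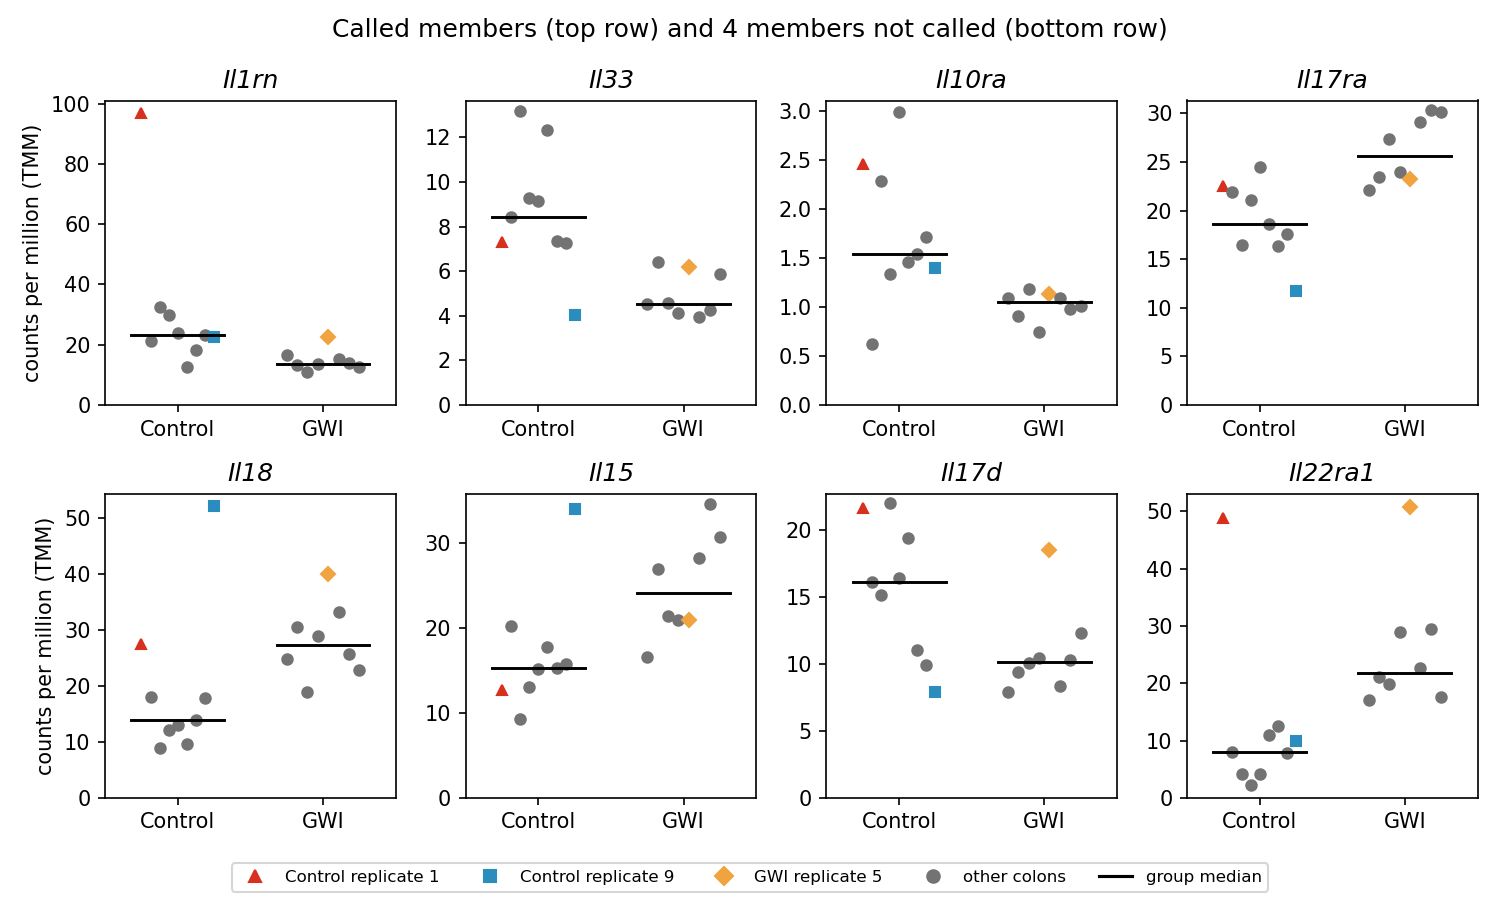
CPM after TMM scaling (vertical axis, from 0) in each of the 9 Control and 8 GWI colons for the called members Il1rn, Il33, Il10ra and Il17ra and, below, Il18, Il15, Il17d and Il22ra1, which were not called. Lines are group medians, and coloured symbols are Control replicate 1, Control replicate 9 and GWI replicate 5, of which Control replicate 1 lies at 96.7 CPM for Il1rn and 48.8 for Il22ra1.

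The remaining 18 tested receptor chains had log2 fold changes between -0.91, for Il7r, and 0.26, for Il4ra, and 0 were called by DESeq2 or by edgeR in the fit as reported, with Il11ra1, Il3ra, Il4ra and Il7r at an unadjusted p under 0.05 by edgeR. Limma-voom called Il4ra and Il17rb higher and Il11ra1, Il3ra and Il6ra lower, and the fit with the muscle and epithelium covariate called Il4ra higher and Il7r lower. Il7r, the IL-7 receptor chain, had an adjusted p of 0.0790 and was called without Control replicate 2 (-1.06, adjusted p = 0.0177). The adjusted p of Il7r was 0.149 without Control replicate 9, its highest colon, and 0.365 with limma-voom. Over the 12 other fits that changed a setting or left out several colons its log2 fold change ran from -1.38 to -0.40. Il4ra, the chain shared by the receptors of IL-4 and IL-13, had 0.0887 and was called without Control replicate 6 (0.32, adjusted p = 0.0337) and without Control replicates 6 and 7. Il11ra1, the receptor chain of IL-11, had -0.48 (adjusted p = 0.0886) and was called lower under upper-quartile factors and without GWI replicate 5 (adjusted p = 0.022). It has a near-identical paralogue, Il11ra2, and overlaps Ccl27a on the opposite strand, so its counts are uncertain. Il6ra, which binds IL-6, had -0.42 with an SE of 0.25, and Control replicate 6 was far above the other Control colons at 13.6 CPM. Without that colon it was -0.22, and under the muscle and epithelium covariate 0.44. By family, the median was -0.11 for the 5 tested receptors of the IL-1 family. It was -0.15 for the 6 of the common gamma chain family and -0.26 for the 2 of IL-13, IL-3 and IL-5. The 3 of the IL-6 family had -0.42, the 4 of the IL-10 family 0.13 and the 5 of the IL-17 family 0.21. Those of the IL-10 family ran from -0.79 to 1.11, and the median of all tested genes was -0.06. The tested IL-6 family chains, Il6st, Il6ra and Il11ra1, were at 0.39, 0.44 and 0.07 under the muscle and epithelium covariate.

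Among inhibitors, Il1rn was lower in GWI. It encodes the IL-1 receptor antagonist, which occupies the receptor of IL-1 without signalling, and lies at chr2:24336853-24351494 on the plus strand. Control colons had from 12.6 to 96.7 CPM with a median of 23.3, and GWI colons from 11.1 to 22.6 with a median of 13.7. All 8 GWI colons were below the Control median and 2 below every Control colon, and the groups overlapped. The log2 fold change was -1.08 (SE 0.32, adjusted p = 0.0195), the lowest of the 35 members. Without Control replicate 1, at 96.7 CPM, it was -0.63 (adjusted p = 0.00905), a smaller difference that kept the call. Both fits with a covariate lost the call, that for muscle and epithelium (-1.12, adjusted p = 0.0950) and that for lymphocyte markers (-0.87, adjusted p = 0.106), within a range from 0.000411 to 0.106 over its 13 other fits. Il1a and Il1b, the ligands that the antagonist competes with, failed the filter, with at most 11 counts in a colon, and their receptor Il1r1 had a log2 fold change of 0.12 with an SE of 0.21.

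Il22ra2, a soluble receptor that binds IL-22 and keeps it from cells, had 1.02 to 7.01 CPM with a median of 3.34 in Control and 0.675 to 3.02 with a median of 1.97 in GWI. All 8 GWI colons were below the Control median, and the groups overlapped. Its log2 fold change was -0.93 (SE 0.34, adjusted p = 0.0508), and 6 of its 13 other fits passed the threshold. It was -0.50 (adjusted p = 0.293) under the lymphocyte covariate and -0.69 (0.119) without Control replicates 1 and 9. Of the 17 fits that left out 1 colon 5 passed, those without Control replicate 2, 6 or 8 and those without GWI replicate 1 or 5, with the lowest adjusted p at 0.0200. Il18bp, which binds IL-18, had a log2 fold change of 0.05 with an SE of 0.18. The gene Numa1 overlaps it on the opposite strand.

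The 48 members that failed the filter were 28 ligands, 17 receptor entries, 1 inhibitor and the 2 other entries. In 34 of them no colon reached 10 counts, and 10 were at 0 in every colon. Ligands at 0 in every colon were Il17a, Il1f10, Il20, Il21, Il24, Il3, Il31 and Il9, for which a count of 0 allows up to 0.133 to 0.209 CPM, depending on the library. This limit covers counting error alone, since the reads carry no molecular identifiers and may be copies of 1 molecule. Il22, the ligand of the IL-22 receptor, had at most 5 counts in a colon, and 15 of the 17 colons had 0. Il13 and Il5 had at most 1 and 2 counts. Il1f8, an IL-36 cytokine, reached 32 counts, the most of any of the 48 in 1 colon, Il17b 23, and Il11 13. Il10, Il12a, Il12b, Il17c, Il17f, Il19, Il1f6, Il1f9, Il2, Il23a, Il25 and Il27 had at most 10, and Il1a and Il1b 11. Among receptors, Il13ra2, a decoy receptor of IL-13, reached 21 counts in Control replicate 1, and Il18rap, Il2ra, Il1r2, Il20ra, Il9r, Il27ra, Il12rb1, Il12rb2 and Il1rapl1 had between 9 and 15 at most. Il23r, Il31ra, Il5ra, Il1rapl2 and the Il11ra2 entries had at most 6. The inhibitor was Il1f5, with 1 count in all, and Il1bos and Il4i1 had at most 5 and 8. In the fit with no filter Il13ra2 and Il1rapl1 were called lower, at log2 fold changes of -2.62 and -1.84 and adjusted p of 0.035 and 0.023, and the other 46 were not called.

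Genes that act with the members were read from the same fit. Of 15 partners without an Il symbol 12 were tested, and 2 were higher. Sigirr, an inhibitory receptor of the IL-1 family, had 23.1 to 30.9 CPM in Control and 30.4 to 40.7 in GWI, with a log2 fold change of 0.39 (SE 0.08, adjusted p = 0.00446). Ifnlr1, which pairs with Il10rb to receive interferon lambda, had 4.42 to 18.3 CPM in Control and 7.31 to 20.4 in GWI, with 0.83 (SE 0.27, adjusted p = 0.0284). Both overlapped between the groups, with 7 GWI colons above every Control colon for Sigirr and 1 for Ifnlr1. By edgeR 0 partners were lower, 3 at an unadjusted p under 0.05, while DESeq2 called 2 lower and limma-voom 7. Over all tested genes edgeR called 13.5% lower and limma-voom 29.5%. Ifnlr1 was not called without Control replicates 6 and 7 or without Control replicate 3, 4 or 5 or GWI replicate 4, 5, 6 or 7, nor under the lymphocyte covariate, and under the muscle and epithelium covariate 0 partners were called. Of 34 tested signalling genes 15 were higher (44.1%, against 13.4% of all tested genes), their median log2 difference being 0.27, and 0 were lower, also at an unadjusted p under 0.05, while DESeq2 called 0 lower and limma-voom 1. Upper-quartile factors gave 10 higher and 1 lower, the muscle and epithelium covariate 8 and 2, the fit without Control replicates 1 and 9 gave 19 and 1, and that without Control replicates 6 and 7 gave 12 and 0.

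Of 10 tested JAK and STAT genes 5 were higher, namely the kinases Jak1, Jak3 and Tyk2 and the transcription factors Stat2 and Stat6, with log2 fold changes from 0.26 for Jak1 to 0.45 for Jak3. Stat6, which carries IL-4 and IL-13 signals, had a median of 78.1 CPM in Control and 102 in GWI, and 7 of the 8 GWI colons were above every Control colon (0.40, SE 0.09, adjusted p = 0.00533). Of the 4 feedback inhibitors of the SOCS family 2 were higher. Socs3 had 5.92 to 13.7 CPM in Control and 12.2 to 17.3 in GWI (0.79, SE 0.16, adjusted p = 0.00241), and Cish had a log2 fold change of 0.71 (adjusted p = 0.0182). Most abundant in these lists were Jak1 and Socs2. Of 8 adaptors of IL-1 and IL-17 receptors 2 were higher, Irak4 and Traf6. Irak4, a kinase that IL-1 receptors recruit through Myd88, separated the groups without overlap, at 24.0 to 33.5 CPM in Control and 34.4 to 44.3 in GWI (0.55, SE 0.08, adjusted p = 0.000448), where 2.35% of all tested genes separated. Of 7 genes of NF-kappaB 4 were higher, with Rel having the highest log2 fold change of 0.97 (SE 0.17, adjusted p = 0.00149), and Nfkb1, Nfkb2 and Relb the others. Of 5 tested genes that process IL-1 family cytokines 2 were higher, Nlrp6, an inflammasome sensor of epithelium, at 0.44, and Gsdmd, which forms pores for their release, at 0.40. The median of these 5 was -0.12, but 0.15 without Control replicate 1, 0.10 without Control replicate 9, 0.35 without both and 0.36 with limma-voom. Under upper-quartile factors 0 of them were called, and under the muscle and epithelium covariate 0 were higher and 2 lower, Casp1 and Pycard, with a median of -0.63. Gsdmd also lost its call without GWI replicate 7 and Stat2 without GWI replicate 4, and Gsdmd, Stat2 and Cish lost theirs without Control replicates 6 and 7. Jak1, Stat2 and Nfkb1 were not called under upper-quartile factors, nor Cish, Gsdmd and Nfkb1 under the lymphocyte covariate. Tollip, Nfkb1 and Nlrp6 were the most abundant of their lists. Of the 15 signalling genes called, Jak3, Stat6, Irak4, Nfkb1, Nfkb2 and Relb kept their calls under the muscle and epithelium covariate and the rest lost theirs. The median log2 difference of all 34 tested signalling genes was 0.24 under this covariate and 0.27 without it. Nfkb1 lost its call in 8 of the 17 fits that left out 1 colon, with library size alone and with no filter. Epithelium and muscle markers moved with these genes as given above, and their part was not tested.

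Markers of other cells that make or receive interleukins were also counted, beside 13.4% of all tested genes higher and 13.5% lower by edgeR. By limma-voom these shares were 27.6% and 29.5%. Of 5 tested markers of natural killer and innate lymphoid cells 1 was lower, Id2. Tuft cells are a source of IL-25 in gut epithelium, and of their 10 tested markers 0 were called by edgeR, with 2 higher at an unadjusted p under 0.05, while DESeq2 called 1 higher and limma-voom 4 higher and 2 lower, and Dclk1 was the most abundant. Without Control replicate 1, 3 tuft cell markers were higher. Of 7 goblet cell markers 1 was higher, Muc2, which was also the most abundant, while DESeq2 and limma-voom called 3 higher. No goblet cell marker was called without Control replicates 6 and 7, the same held for 11 of the 17 fits that omitted a colon, and without Control replicate 1 the number higher was 3. Of 9 tested small intestine markers 3 were lower, Fabp6, Anpep and Lyz1, with Fabp2 the most abundant, and without Control replicates 6 and 7 none of the 9 was called. The members Il33, Il17ra, Il1rn and Il10ra kept their calls without Control replicates 6 and 7, in a fit added after the data were seen. Of 9 enteric neuron markers 0 were called by edgeR, also at an unadjusted p under 0.05, DESeq2 called 0 and limma-voom 8, lower, and Uchl1 was the most abundant. Of 6 tested plasma cell markers, led by Xbp1, and of 5 adipocyte markers, led by Fabp4, 0 were called by edgeR, with 0 and 1 at an unadjusted p under 0.05, while DESeq2 called 0 of each and limma-voom 1 and 0. The adipocyte markers had a median log2 difference of 1.095. Their sum ran from 16.8 to 232.5 CPM in Control and from 50.9 to 669.3 in GWI, where GWI replicate 7 was highest. The 1 tested neutrophil marker, Ly6g, was not called (log2 fold change -1.17, SE 0.74, adjusted p = 0.241). Its highest level, 12.5 CPM, was in Control replicate 1, the colon that was also highest for Il1rn, and whether the 2 are linked was not tested. Mast cell and eosinophil markers, led by Tpsb2 and Ear2, all failed the filter, with summed levels of at most 2.35 and 0.767 CPM.

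Promoter sequences are shown for the called members of the IL-1 family, Il33 and Il1rn, which were both lower in GWI. RefSeq promoters of GRCm38.p6 run from 250 bases before to 50 bases after a gene start, and 64 of the 81 distinct symbols matched. Of the called members, Il33 and Il1rn matched, and Il10ra and Il17ra did not. Both strands were searched for TGANTCA, bound by AP-1, for TTCNNNGAA, bound by STAT factors, and for the NF-kappaB motif. Of all 32851 promoters 7.81%, 8.30% and 8.46% hold them. Capitals mark a match, which is a description of the letters and not a site in use. The upstream start of Il1rn at chr2:24336610-24336909 (plus strand) holds 1 match, to TGANTCA. Its downstream start at chr2:24345041-24345340 and both starts of Il33, at chr19:29924863-29925162 and chr19:29945540-29945839, all on the plus strand, hold 0 matches, which says that these letters are not in these windows. Another Il1rn start overlaps the downstream one and is not printed.
Il1rn upstream start: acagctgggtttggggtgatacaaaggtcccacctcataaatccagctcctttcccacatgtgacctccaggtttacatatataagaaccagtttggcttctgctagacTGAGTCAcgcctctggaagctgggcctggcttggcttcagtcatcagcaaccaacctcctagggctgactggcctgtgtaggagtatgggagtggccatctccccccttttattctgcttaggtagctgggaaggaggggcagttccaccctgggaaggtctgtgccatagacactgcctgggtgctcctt
Il1rn downstream start: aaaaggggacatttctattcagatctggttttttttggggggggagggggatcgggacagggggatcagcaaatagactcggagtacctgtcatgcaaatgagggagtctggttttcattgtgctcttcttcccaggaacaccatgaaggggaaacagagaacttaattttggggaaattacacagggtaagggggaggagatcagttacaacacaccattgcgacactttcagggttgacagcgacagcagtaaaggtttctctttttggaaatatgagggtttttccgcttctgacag
Il33 upstream start: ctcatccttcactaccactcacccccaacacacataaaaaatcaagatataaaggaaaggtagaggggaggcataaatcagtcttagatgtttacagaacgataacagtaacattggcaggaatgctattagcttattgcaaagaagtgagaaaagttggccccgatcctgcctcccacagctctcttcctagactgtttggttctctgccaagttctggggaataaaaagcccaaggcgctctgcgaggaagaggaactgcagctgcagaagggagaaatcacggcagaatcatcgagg
Il33 downstream start: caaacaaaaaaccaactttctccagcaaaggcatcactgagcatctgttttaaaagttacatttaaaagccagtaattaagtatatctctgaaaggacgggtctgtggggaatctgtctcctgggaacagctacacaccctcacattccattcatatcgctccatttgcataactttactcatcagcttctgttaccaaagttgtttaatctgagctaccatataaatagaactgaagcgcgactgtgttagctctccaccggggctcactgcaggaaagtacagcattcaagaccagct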

How the data were processed

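Mouse colon RNA was sequenced from poly(A)-selected, paired-end libraries, 9 of Control and 8 of GWI. Trimming used Trimmomatic 0.36 and alignment to GRCm38 used STAR 2.5.2b, per the submitters' processing notes, and featureCounts gave uniquely assigned reads per gene. The authors deposited these as raw counts that were not normalized. The annotation release and strand setting are not given in the sources used here. The authors tested with DESeq2.

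Here the deposited counts were filtered by filterByExpr, given TMM factors and fitted by the robust glmQLFit of edgeR 4.0.16 (R 4.3.3), followed by glmQLFTest, with condition as the single term. Adjusted p-values are those of Benjamini and Hochberg across 14146 genes. A gene was called at an adjusted p under 0.05. The code was tested on simulated counts. Alternatives were other scalings, filters and covariates, a replicate block, limma-voom with quality weights (limma 3.58.1), the DESeq2 1.42.0 Wald test and leaving out each colon. Exon lengths, positions and overlaps come from GENCODE M21. Summaries ran in Python 3.11.15.

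Named were every called member, every tested ligand, the 5 receptors with the highest level per length, the 3 uncalled members with the smallest p, filtered members as a group, and pathway and marker genes where called or most abundant. Other members, and list genes called in other fits, were named after their values were seen. Glial markers are not reported here. The members and lists were chosen with earlier results of these data known.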

Additional observations from a re-analysis of the deposited data

Results flagged for a closer look

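Each tested member was screened in each group for a colon whose gap to its nearest neighbour is large against the range of the group, by Dixon's critical values. Of 70 groups 15 were found. The critical values flag about 1 in 20 for independent, normally distributed values. These genes share colons and the form of their distribution was not tested, so no excess over chance is read from the count. Il1rn was at 96.7 CPM in Control replicate 1, above the 12.6 to 32.6 CPM of the other Control colons, and its log2 fold change was -1.08 with that colon and -0.63 without it. Il17rc was at 186 CPM in Control replicate 1, above the 65.0 to 94.7 CPM of the other Control colons, and its log2 fold change was 0.25 with that colon and 0.45 without it. Il22ra1 was at 48.8 CPM in Control replicate 1, above the 2.17 to 12.5 CPM of the other Control colons, and its log2 fold change was 1.11 with that colon and 1.80 without it. Il20rb was at 4.80 CPM in Control replicate 1, above the 1.82 to 2.44 CPM of the other Control colons, and its log2 fold change was 0.07 with that colon and 0.26 without it. Il34 was at 5.62 CPM in Control replicate 1, above the 1.16 to 2.65 CPM of the other Control colons, and its log2 fold change was -0.43 with that colon and -0.14 without it. Il18 was at 52.1 CPM in Control replicate 9, above the 8.94 to 27.4 CPM of the other Control colons, and its log2 fold change was 0.55 with that colon and 0.90 without it. Il15 was at 33.9 CPM in Control replicate 9, above the 9.30 to 20.2 CPM of the other Control colons, and its log2 fold change was 0.56 with that colon and 0.75 without it. Il1rap was at 27.5 CPM in Control replicate 9, above the 7.14 to 17.3 CPM of the other Control colons, and its log2 fold change was -0.20 with that colon and -0.00070 without it. Il7 was at 20.0 CPM in Control replicate 9, above the 7.64 to 11.4 CPM of the other Control colons, and its log2 fold change was -0.38 with that colon and -0.22 without it. Il18r1 was at 8.22 CPM in Control replicate 9, above the 0.935 to 4.60 CPM of the other Control colons, and its log2 fold change was -0.11 with that colon and 0.20 without it. Il6ra was at 13.6 CPM in Control replicate 6, above the 3.22 to 7.46 CPM of the other Control colons, and its log2 fold change was -0.42 with that colon and -0.22 without it. 

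Il22ra1 was at 50.7 CPM in GWI replicate 5, above the 17.1 to 29.5 CPM of the other GWI colons, and its log2 fold change was 1.11 with that colon and 0.90 without it. Il1rn was at 22.6 CPM in GWI replicate 5, above the 11.1 to 16.4 CPM of the other GWI colons, and its log2 fold change was -1.08 with that colon and -1.19 without it. Il17d was at 18.5 CPM in GWI replicate 5, above the 7.91 to 12.3 CPM of the other GWI colons, and its log2 fold change was -0.51 with that colon and -0.66 without it. Il21r was at 0.126 CPM in GWI replicate 5, below the 0.631 to 1.04 CPM of the other GWI colons, and its log2 fold change was -0.14 with that colon and 0.01 without it. Control replicates 1 and 9 held 5 each of the 15. What sets these colons apart was not tested.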

How the results depend on the processing

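For the 35 tested members, 30 other fits gave 1045 log2 fold changes. Of these 978 kept their side of the threshold, 8 lost a call, 59 gained one and 0 turned a called direction. Il33, Il17ra, Il1rn and Il10ra kept their calls in all 17 fits that left out 1 colon, in those with other scalings or filters, with DESeq2 and with limma-voom.

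The labels do not say whether the replicate numbers pair the colons. Same-numbered Control and GWI colons correlated between -0.506 and 0.115 in their deviations from the group means. These correlations cannot show whether colons were paired, since differences in tissue make-up between colons also enter them. With these numbers as a block the genes called fell to 2241 in all, 1415 higher and 826 lower of 14146 tested. Among them were 2 members higher (Il15, Il18) and 1 lower (Il33), 3 ligands and 0 receptors, and 11 pathway genes higher and 1 lower. No GWI colon has the number of Control replicate 9, so the block also takes that colon out of the comparison, and the 2 changes were not separated. Under the block the adjusted p was 0.0643 for Il17ra, 0.0560 for Il1rn and 0.0541 for Il10ra.

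In the fit as reported 3792 genes were called in all, with 1 member higher and 3 lower, and 17 pathway genes higher and 0 lower. Upper-quartile factors gave 7 members lower, 3 ligands called and 4 pathway genes lower. Library size alone gave 2 members higher and Il10ra, Il1rn and Il33 lower, where 1530 of 14146 tested genes were higher and 1851 lower. It gave 2 ligands called. With no filter 5 members were lower, where 1674 of 19717 tested genes were lower and 1657 higher, and 4 receptors were called. With at least 10 counts in every colon 2 pathway genes were lower. The muscle and epithelium covariate gave 2 members higher and Il7 and Il7r lower, where 1362 of 14146 tested genes were higher and 2017 lower. It gave 8 pathway genes higher and 2 lower, and medians of -0.036 for ligands and 0.063 for receptors. The lymphocyte covariate gave Il17ra higher and Il17d and Il33 lower, where 1484 of 14146 tested genes were higher and 1663 lower. It gave 2 ligands and 1 receptor called and 1 pathway gene lower. Limma-voom called 8091 genes in all, 8 members higher and 11 lower, 8 pathway genes lower, and 6 ligands and 11 receptors in either direction, with a receptor median of 0.10. DESeq2 called 3 members higher and Il10ra, Il1rn, Il22ra2 and Il33 lower, where 2197 of 19717 tested genes were higher and 2432 lower. It called 2 pathway genes lower and 2 ligands in either direction. The thresholds of the study's methods gave 342 genes in all, 1 member lower and 0 pathway genes higher, with 0 ligands and 1 receptor in either direction. Without Control replicates 1 and 9 together, added after the data were seen, 5 members were higher and 6 lower, with 5 ligands and 5 receptors called and 3 pathway genes lower. Without Control replicates 6 and 7 together, also added, 2 members were higher. Fits that left out 1 colon gave 1 to 3 members higher and 3 to 6 lower, 1 to 4 ligands and 2 to 4 receptors called, 14 to 20 pathway genes higher and 0 to 3 lower, 2781 to 4818 genes in all, and medians from -0.41 to -0.14 for ligands and from -0.11 to 0.02 for receptors. The cause was not tested.

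At this depth 28 of 35 ligands had counts too low to be tested. Whether more depth would reach them was not tested.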
